A study of Mus musculus with 12 samples.

Results

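The genes *Fzd1* to *Fzd10* encode the 10 Wnt receptors of the Frizzled family in the mouse. All 10 carried at least 1 peak of N6-methyladenosine (m6A) on their transcripts in the hippocampus of WT mice and of *Tyrobp*-/- mice. The genes were selected by family name, with earlier results of these peak lists in view, and every peak annotated to them was kept. Overlapping records of 1 *Fzd5* peak were counted separately in each genotype. The Frizzled genes accounted for 25 of 33622 peaks in WT mice and 26 of 34935 peaks in *Tyrobp*-/- mice, and for 10 of the 17779 genes with a peak in either genotype. The deposited table that compares the genotypes held 3 Frizzled regions among 5640, of which 2, overlapping, were in *Fzd5* and 1 in *Fzd1*. *Fzd8* had 0. The values of that comparison were not used, so a listed region is not read as a difference.

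Frizzled proteins span the plasma membrane and bind Wnt ligands with a cysteine-rich domain outside the cell. With the co-receptors Lrp5 and Lrp6 they recruit Dishevelled, which keeps beta-catenin from being degraded, and through other partners they act on cell polarity and calcium without beta-catenin. In the hippocampus Wnt signalling is known for its part in regional patterning, adult neurogenesis and synapse formation. m6A is a methyl mark on adenosines inside messenger RNA, best known around stop codons and in 3' UTRs, that is written by the Mettl3 and Mettl14 complex and bound by proteins that affect the stability and translation of the transcript.

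MeRIP-seq was performed on the hippocampus of male C57BL/6 mice at 6 months of age. WT littermates were compared with *Tyrobp*-/- mice, labelled Tyrobp KO, in which a TALEN removed a short stretch of exon 2 in the germline, so that every cell type carried the deletion. *Tyrobp* encodes an adaptor protein of microglial receptors such as Trem2. Each genotype had 3 samples, each pooled from several mice, and each sample gave 1 library of RNA precipitated with an m6A antibody (IP) and 1 input library.

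The 12 libraries held between 61189368 and 73554506 valid reads. Peaks had been called on the 3 replicates of a genotype together, so each peak had 1 value per genotype, the fold enrichment of IP over input, and no replicate error. No difference between the genotypes could therefore be tested, and the values are given as a description beside the same measure over all peaks. The number of reads behind a peak is unknown. Hippocampal tissue was taken whole, and fewer modified transcripts in each cell and fewer cells with the modified transcript cannot be told apart. All 24 markers of neurons, hippocampal principal cells, astrocytes, oligodendrocytes, microglia and endothelium examined had a peak in both genotypes. *Tyrobp* itself had 0 peaks in both lists, so the knockout could not be checked from these data.

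Most Frizzled transcripts were covered by more peak sequence than the median gene. The median Frizzled gene had 1330 exonic bases under a peak in WT mice and 1410 in *Tyrobp*-/- mice, against 685 and 660 for the median of all genes with a peak, and transcript length was not taken into account. More than 1 peak was listed for 8 of 10 Frizzled genes in each genotype, against 54.96% of all genes in WT mice and 56.23% in *Tyrobp*-/- mice. The median fold enrichment of a Frizzled peak was 6.84 in WT mice, with a range from 1.49 to 25.1, and 8.67 in *Tyrobp*-/- mice, with a range from 2.43 to 29.9. The medians over all peaks were 5.54 and 5.72. The Frizzled medians count the overlapping *Fzd5* records, at 4.88 in WT mice and at 18.1 and 19.1 in *Tyrobp*-/- mice. Without 1 of these records in each genotype, the WT median would be higher and the *Tyrobp*-/- median lower. They also include peaks without a partner, and the median log2 ratio of *Tyrobp*-/- over WT mice at paired Frizzled peaks was -0.32.

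Ranked by the highest peak of each gene, the WT order was *Fzd8* at 25.1, *Fzd4* at 22.1, *Fzd9* at 19.1, *Fzd1* at 13.0, *Fzd7* at 12.4, *Fzd10* at 11.3, *Fzd6* at 9.09, *Fzd5* at 7.42, *Fzd2* at 6.60 and *Fzd3* at 6.51. In *Tyrobp*-/- mice the order was *Fzd8* at 29.9, *Fzd9* at 23.9, *Fzd5* at 19.1, *Fzd4* at 13.5, *Fzd10* at 12.1, *Fzd7* at 11.4, *Fzd1* at 9.70, *Fzd2* at 7.72, *Fzd6* at 6.71 and *Fzd3* at 4.57. *Fzd8* led and *Fzd3* was last in both genotypes, while *Fzd5* moved from the eighth place to the third. The highest peaks of *Fzd5* and of *Fzd8* are different regions in the 2 genotypes. For *Fzd5* they were the exon 2 peak in WT mice and a 5' UTR record in *Tyrobp*-/- mice with a log10 FDR of -4.05. Its exon 2 peak had 16.2 in *Tyrobp*-/- mice. Without replicate values, neighbours in these orders cannot be separated. *Fzd8* exceeded 95.74% of all genes with a peak in WT mice and 97.35% in *Tyrobp*-/- mice, and *Fzd3* exceeded 36.54% and 23.37%.

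**Figure D1:**
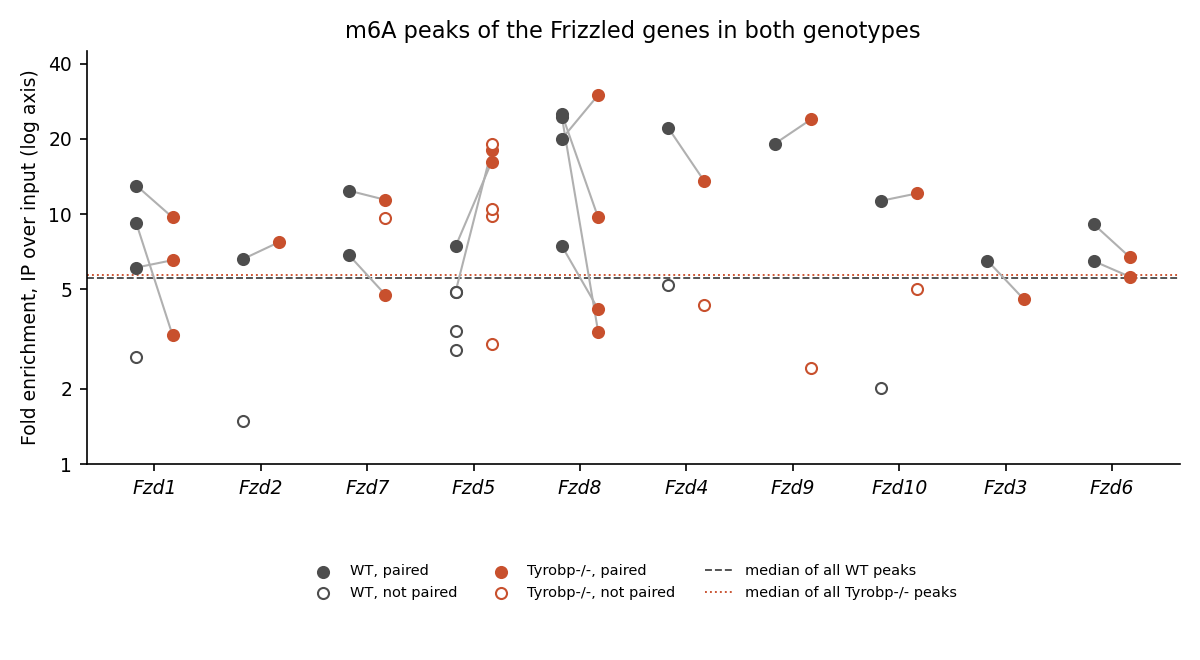
Fold enrichment of IP over input (y axis, log scale) of every Frizzled peak in WT mice (grey) and *Tyrobp*-/- mice (orange), with lines joining paired peaks, open points for peaks outside a pair and horizontal lines at the median of all peaks. The *Fzd5* lines climb from 4.88 and 7.42 to 18.1 and 16.2, whereas the steepest falling line joins 24.4 and 3.39 in *Fzd8*.

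Each peak carried 1 annotation. In WT mice 8 of 25 Frizzled peaks were annotated to the 5' UTR, 3 to the first exon, 2 to another exon and 12 to the 3' UTR. In *Tyrobp*-/- mice the counts were 6, 3, 5 and 12 of 26. The 3' UTR share was 48.0% in WT mice (exact 95% binomial interval 27.8 to 68.7%, counting error only), against 47.22% of all peaks. The 5' UTR share was 32% (15.0 to 53.5%) against 18.88%. Both intervals include the share over all peaks, but they treat peaks of 1 gene as independent, which these peaks are not. The 5' UTR counts also hold 2 overlapping records of 1 *Fzd5* peak in each genotype. *Fzd2*, *Fzd7*, *Fzd8*, *Fzd9* and *Fzd10* were annotated with 1 exon, and where a peak lay relative to the coding sequence was not measured.

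**Figure D2:**
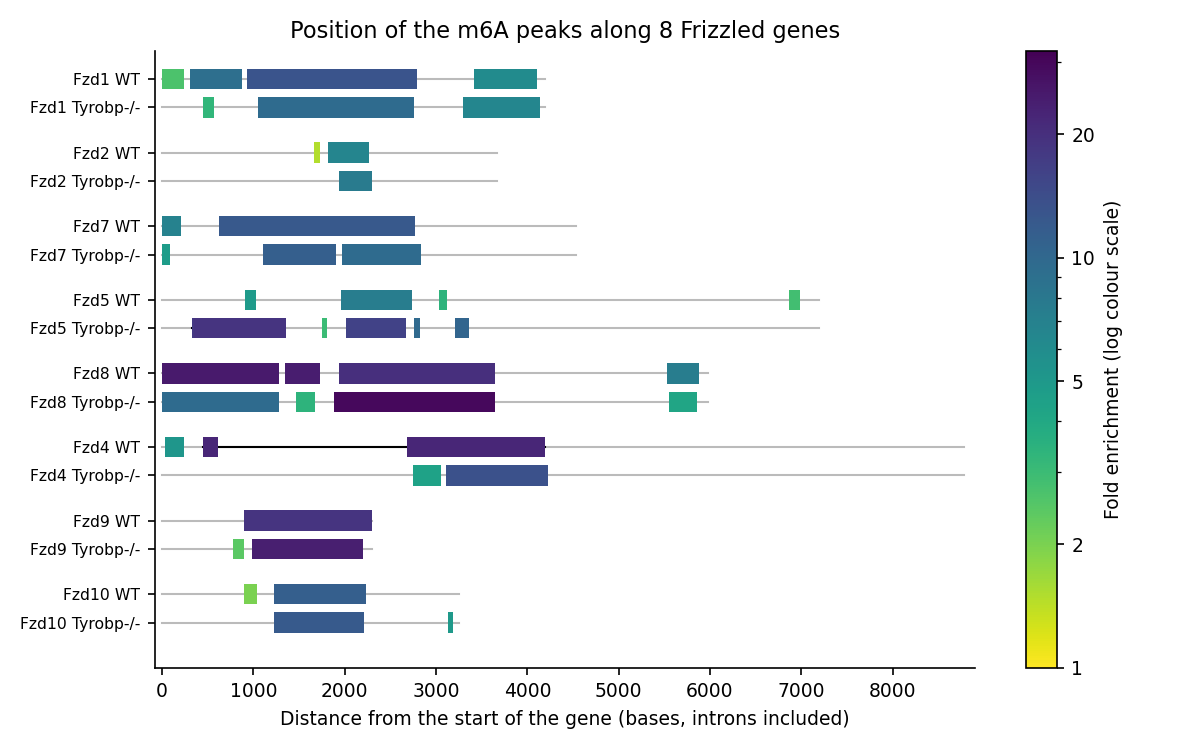
Peaks along 8 Frizzled genes (x axis, bases from the start of the gene with introns included; *Fzd3* and *Fzd6*, which span 70015 and 32155 bases, are left out), with WT and *Tyrobp*-/- mice on separate lines, colour for fold enrichment on a log scale and grey lines for the gene. Black lines join blocks of 1 peak across an intron. The long peaks of *Fzd1*, *Fzd8*, *Fzd9* and *Fzd10* stand at about the same place in both genotypes, that of *Fzd7* is split in *Tyrobp*-/- mice, and the 5' peak of *Fzd5* is longer and darker in *Tyrobp*-/- mice.

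Peaks of the same gene that shared at least 1 exonic base in the 2 lists were paired, each with the partner with which it shared most bases. All peaks gave 23685 such pairs, of which 6.92% had a fold enrichment at least 2 times higher in *Tyrobp*-/- mice and 6.06% had one at most 0.5 times that of WT mice. The Frizzled genes gave 18 pairs, of which 2 were higher by this rule, both in *Fzd5*, and 3 were lower, 2 in *Fzd8* and 1 in *Fzd1*. The log2 ratio of *Tyrobp*-/- over WT mice was below 0 in 11 of the 18 Frizzled pairs and in 46.0% of all pairs. Its median was -0.32 over the Frizzled pairs and 0.05 over all pairs. The other 13 Frizzled pairs lay within a ratio of 2 in either direction.

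A property of the fold enrichment touches several of these values. The most frequent values of each list were whole multiples of 1 number, 0.977 in WT mice and 0.953 in *Tyrobp*-/- mice. The value 6.84 alone, which is 7 times 0.977, was listed for 1281 WT peaks. Values equal, at the 3 digits listed, to a multiple from 3 to 30 are called whole multiples, and they made up 25.4% of the WT list and 26.3% of the *Tyrobp*-/- list. They were 53.8% of the WT peaks whose false discovery rate (FDR) for IP against input was above 1e-5 and 5.33% of those below 1e-100, and 55.0% and 5.02% in *Tyrobp*-/- mice. A ratio of read numbers takes such values where many peaks share the same small denominator, which was not tested, since the reads of a peak are unknown. Among pairs with a whole multiple in either genotype, 14.9% were higher and 14.4% lower in *Tyrobp*-/- mice, against 3.89% and 2.86% of the other pairs. Of the 5 Frizzled pairs past a ratio of 2, 3 held a whole multiple, namely both in *Fzd5* and 1 of the 2 in *Fzd8*. A value can also match a multiple by coincidence, more easily where it is large and listed to fewer decimals. The share of such matches was not measured.

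**Figure D3:**
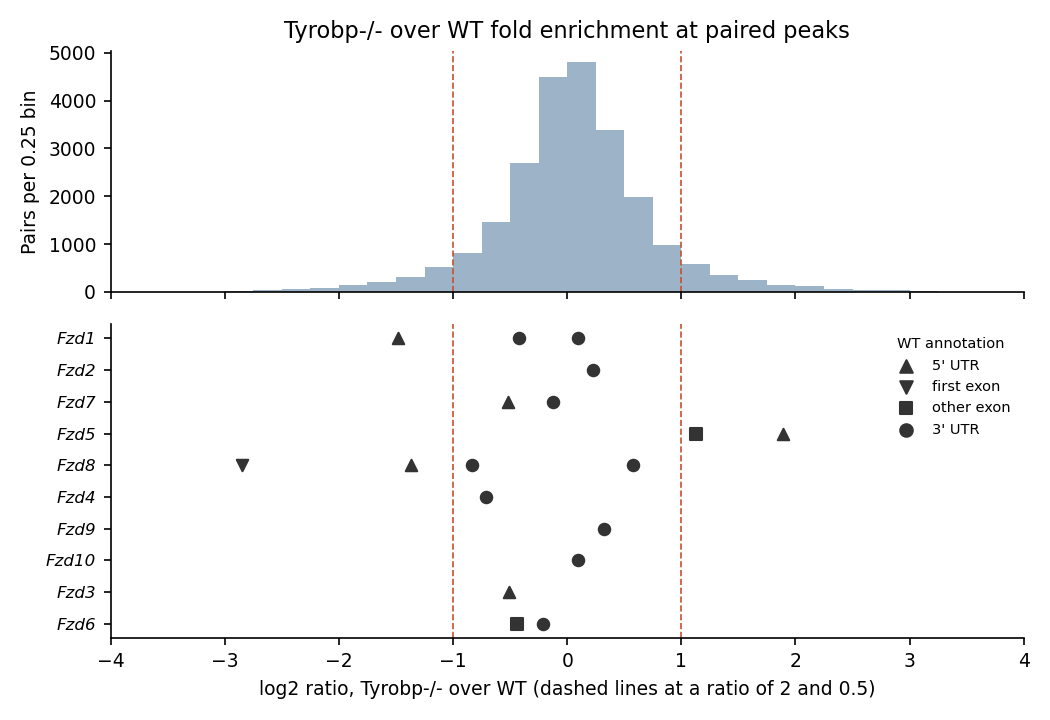
Number of all paired peaks by log2 ratio of *Tyrobp*-/- over WT fold enrichment (upper panel, bins of 0.25) and the 18 Frizzled pairs on the same axis (lower panel, 1 point per pair, marked by WT annotation). The points at the 3' UTR lie between -0.84 and 0.58, inside the dashed lines at a ratio of 2 and 0.5, and 4 of the 5 points outside the lines are annotated to the 5' UTR or the first exon.

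*Fzd1*, *Fzd2* and *Fzd7* are close relatives within the family and are best known for signalling through beta-catenin. *Fzd1* (ENSMUSG00000044674, chr5:4753839-4758035, minus strand, GRCm38) had 4 peaks in WT mice and 3 in *Tyrobp*-/- mice. A 5' UTR peak of 570 bases with a fold enrichment of 9.18 in WT mice was paired with one of 120 bases at 3.28 in *Tyrobp*-/- mice, a log2 ratio of -1.48 and the lowest outside *Fzd8*. The log10 FDR of this peak was -8.16 and -2.56. The long peak that followed, of 1859 and 1709 bases and annotated to the 3' UTR, had values of 13.0 and 9.70. The last peak, near the 3' end, had 6.11 and 6.54. A WT peak at the very start of the gene, at 2.68, had no partner. The *Fzd1* region of the comparison table, chr5:4755218-4757226, spanned the long peak and the edge of the 5' UTR peak. *Fzd1* values were thus lower in *Tyrobp*-/- mice towards the 5' end and nearly equal at the 3' end.

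*Fzd7* (ENSMUSG00000041075, chr1:59482424-59486955, plus strand) showed a smaller difference of the same sign. Its 5' UTR peak had 6.84 in WT mice and 4.76 in *Tyrobp*-/- mice, both whole multiples of the number of their list. Its main WT peak ran over 2147 bases at 12.4, and in *Tyrobp*-/- mice the same stretch was listed as separate peaks of 806 bases at 11.4 and 866 bases at 9.62. Both shared 806 bases with the WT peak, and the log2 ratio was -0.12 with the former and -0.37 with the latter. The value of 11.4 was also a whole multiple, and its peak had a log10 FDR of -15.8, against -246 for the peak at 9.62. *Fzd2* (ENSMUSG00000050288, chr11:102604396-102608058, plus strand) had a 3' UTR peak at 6.60 in WT mice and 7.72 in *Tyrobp*-/- mice. A WT peak of 61 bases at 1.49, the weakest Frizzled peak of either list, had no partner and a log10 FDR of only -0.966. It is counted here because every listed peak was kept, whatever its FDR.

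*Fzd5* and *Fzd8* form another closely related pair, and both are known as receptors of beta-catenin signalling in the developing forebrain and eye. They held 4 of the 5 Frizzled pairs past a ratio of 2, in opposite directions. *Fzd5* (ENSMUSG00000045005, chr1:64730558-64737751, minus strand) was the only Frizzled gene in which every pair was past a ratio of 2, and both were higher in *Tyrobp*-/- mice. Its 5' UTR peak had 4.88 in WT mice and 18.1 in *Tyrobp*-/- mice, a log2 ratio of 1.89. Its peak in exon 2, the last of its 2 exons, had 7.42 and 16.2, a log2 ratio of 1.13. The WT value of 4.88 was 5 times the number of its list, and 18.1 and 16.2 were 19 and 17 times that of theirs.

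The 5' UTR peak of *Fzd5* was listed as a pair of overlapping records in each genotype, of 91 and 120 bases at 4.88 in WT mice and of 720 bases at 18.1 and 1018 bases at 19.1 in *Tyrobp*-/- mice, so these records are not separate peaks. Both *Fzd5* regions of the comparison table, chr1:64736659-64737018 and chr1:64736634-64737272, lay inside its *Tyrobp*-/- records and around its WT ones. The log10 FDR of this peak was -1.07 in WT mice and -3.82 in *Tyrobp*-/- mice, weak among the Frizzled peaks, and that of the exon 2 peak was -8.88 and -15.8. Among all pairs whose weaker FDR was above 1e-5, 14.0% were higher and 13.7% lower in *Tyrobp*-/- mice, against 4.45% and 3.40% where both were at most 1e-5. *Fzd5* also held 5 of the 10 Frizzled peaks without an overlapping peak in the other genotype. In WT mice these were 3' UTR peaks at 3.42 and 2.86, and in *Tyrobp*-/- mice they were exon peaks at 3.02 and 9.85 and a 3' UTR peak at 10.5.

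*Fzd8* (ENSMUSG00000036904, chr18:9212163-9218136, plus strand) had 4 peaks at the same places in both genotypes, and its 5' peaks and its long 3' peak differed in opposite directions. The 5' UTR peak, with the same 1285 bases in both lists, had a fold enrichment of 25.1 in WT mice and 9.70 in *Tyrobp*-/- mice, a log2 ratio of -1.37. The peak after it, annotated to the first exon, had 24.4 and 3.39, a log2 ratio of -2.85 that was undercut by only 0.165% of all pairs. The long peak annotated to the 3' UTR had 20 and 29.9, and the last peak 7.45 and 4.17. Taken as 1 value for the gene, the log2 ratio was 0.25 between the strongest peaks, which are different regions (the 5' UTR peak in WT mice and the long 3' UTR peak in *Tyrobp*-/- mice), and -0.15 by the mean weighted by width. All 4 peaks had an FDR below 1e-5 in both genotypes. The WT value of 24.4 was 25 times the number of its list, whereas 25.1 and 9.70 were not whole multiples. Of the 5 Frizzled pairs past a ratio of 2, only the 5' UTR pair of *Fzd8* had an FDR of at most 1e-5 and no whole multiple in either genotype. Since a value can match a multiple by coincidence, this does not show which of the pairs are real differences. Pairs that start from a high WT value were lower more often, since 34.8% of all pairs with a WT fold enrichment of at least 20 were lower in *Tyrobp*-/- mice, and 4 Frizzled pairs belonged to that set, of which 2 were lower.

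*Fzd4*, *Fzd9* and *Fzd10* each had 1 paired peak, which was annotated to the 3' UTR and lay within a ratio of 2. *Fzd9* (ENSMUSG00000049551, chr5:135248938-135251230, minus strand), which is known for expression in the hippocampus, had 19.1 in WT mice and 23.9 in *Tyrobp*-/- mice. A peak of 120 bases at 2.43, upstream in its only exon, was listed for *Tyrobp*-/- mice. *Fzd10* (ENSMUSG00000081683, chr5:128600844-128604093, plus strand) had 11.3 and 12.1, beside a WT peak at 2.01 and a *Tyrobp*-/- peak at 5.00 without a partner.

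*Fzd4* (ENSMUSG00000049791, chr7:89404355-89413134, plus strand), a receptor of Norrin as well as of Wnt ligands that is needed by brain and retinal vessels, had 22.1 in WT mice and 13.5 in *Tyrobp*-/- mice. The WT peak joined exon 1 to exon 2 across the intron, and the *Tyrobp*-/- peaks, at 13.5 and 4.34, lay in exon 2 alone. *Fzd4* also had a 5' UTR peak at 5.21 in WT mice without a partner, with a log10 FDR of -1.93. It was the only Frizzled peak to reach into a promoter window of RefSeq, which held a window for 6 of the 10 genes, and its first 30 bases (chr7:89404385-89404414, plus strand, GRCm38.p6) are shown as the one stretch of a peak with a reference sequence at hand.

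*Fzd4* WT 5' UTR peak, first 30 bases: cagcgcggcgtagagtgcaggcgggcttcg

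This stretch held neither GGAC nor GAAC, core letters of the consensus of m6A sites, on the strand of the gene. At the same place of all 32851 promoter windows, GGAC was present in 11.65% and GAAC in 8.58%, and on either strand in 21.06% and 17%. The absence of these letters from 30 bases says nothing of the rest of the peak.

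*Fzd3* and *Fzd6*, the members best known for planar cell polarity and axon guidance, stood low in both orders and had no pair past a ratio of 2. *Fzd3* (ENSMUSG00000007989, chr14:65192449-65262463, minus strand) had 1 peak in each genotype, a 5' UTR peak of 691 bases in 3 blocks at 6.51 in WT mice and of 421 bases in 2 blocks at 4.57 in *Tyrobp*-/- mice. It was the only Frizzled gene without a peak annotated to the 3' UTR or to another exon. *Fzd6* (ENSMUSG00000022297, chr15:39006034-39038188, plus strand), annotated with 7 exons, had an internal peak across an intron at 9.09 and 6.71 and a 3' UTR peak at 6.48 and 5.61. All 3 pairs were lower in *Tyrobp*-/- mice by log2 ratios between -0.51 and -0.21.

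Across the family, most of the differences past a ratio of 2 were at peaks annotated to the 5' UTR or the first exon. These labels do not order peaks by position. The WT 3' UTR peak of *Fzd4* began 450 bases from the gene start, and the WT first exon peak of *Fzd8* began at 1344. The grouping by annotation was chosen after the values were seen. The 6 pairs annotated to the 5' UTR or the first exon in WT mice had a median log2 ratio of -0.95, 5 were below 0, 3 were lower and 1 was higher by a ratio of 2. Of all 6287 pairs with these annotations, 50.9% were below 0, 9.30% were higher and 9.80% lower. The 10 Frizzled pairs annotated to the 3' UTR had a median of -0.01 and none past a ratio of 2, against 5.13% higher and 3.76% lower among all 3' UTR pairs. The difference between these annotations was not tested, since pairs of 1 gene share their reads and the ratios have no replicates.

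In all, 6 of 25 WT peaks and 4 of 26 *Tyrobp*-/- peaks of Frizzled genes overlapped no peak of the gene in the other genotype, against 22.5% of all WT peaks and 24.6% of all *Tyrobp*-/- peaks. The WT ones had fold enrichments from 1.49 to 5.21 and the *Tyrobp*-/- ones from 3.02 to 10.5. The exonic bases under peaks were fewer in *Tyrobp*-/- mice in 8 of 10 Frizzled genes, against 45.2% of all genes in both lists. They were 3360 in WT and 2669 in *Tyrobp*-/- mice in *Fzd1*, 2357 and 1762 in *Fzd7*, and 1892 and 1412 in *Fzd4*. They were larger in *Fzd5*, with 1109 in WT mice and 1964 in *Tyrobp*-/- mice, and in *Fzd6*, with 1259 and 1409. The median log2 ratio of covered bases was -0.24 over the Frizzled genes and 0 over all genes. The *Tyrobp*-/- IP libraries held 194407200 valid reads in all and the WT ones 199741600, and the part of this difference in the result was not tested.

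**Figure D4:**
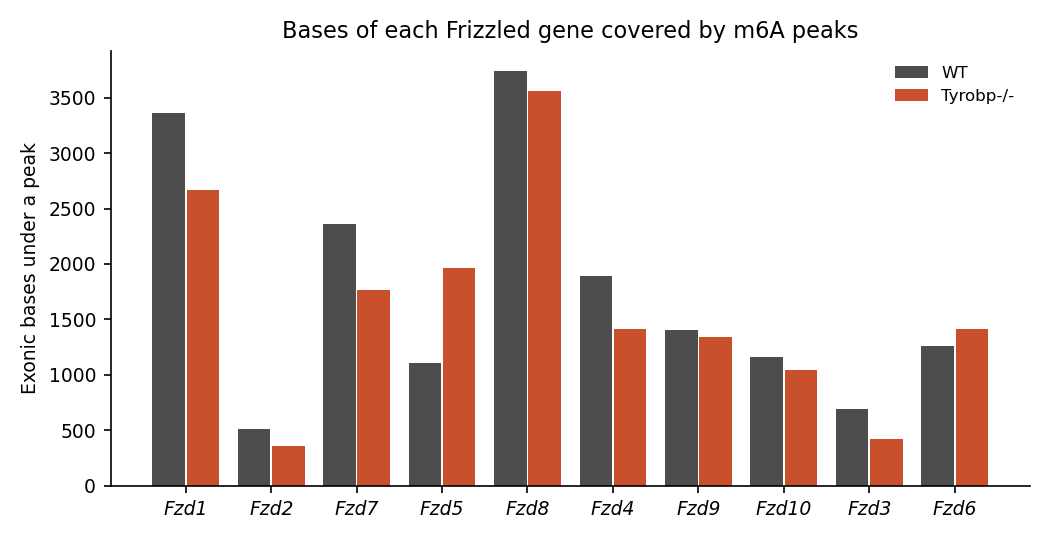
Exonic bases under a peak (y axis) in each Frizzled gene in WT mice (grey bars) and *Tyrobp*-/- mice (orange bars), 1 value per genotype and therefore without error bars. The orange bar is lower in 8 of 10 genes and is 1.77 times the grey bar in *Fzd5*.

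The genes that act with the Frizzled receptors were examined from lists of 76 other genes. Of these, 67 had a peak in WT mice, 67 in *Tyrobp*-/- mice and 65 in both, and they gave 123 pairs, of which 8 were higher and 5 lower in *Tyrobp*-/- mice by a ratio of 2, with a median log2 ratio of -0.04. These counts compare with 6.92% and 6.06% of all pairs. A whole multiple from 3 to 30 of the number of its list was present in 8 of these 13 pairs, those of *Wnt3a*, *Wnt9b*, *Wnt6*, *Wnt16*, *Wnt1*, *Sfrp2*, *Dvl3* and *Frzb*. The *Tyrobp*-/- values of *Wnt7b* and *Ror2* matched higher multiples, 31 and 96 times that number, which this count leaves out. At such large values a match may well be a coincidence.

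Among the 19 Wnt ligands, 16 had a peak in each genotype, and *Wnt2b*, *Wnt8a* and *Wnt10b* had none. The highest WT value was 28.6 in *Wnt10a*. Of 28 pairs 3 were higher, in *Wnt7b* (6.19 in WT and 29.5 in *Tyrobp*-/- mice), *Wnt9b* (20.5 and 44.8) and *Wnt3a* (7.81 and 16.2). The same number were lower, in *Wnt6* (25.4 and 10.5), *Wnt1* (20.5 and 8.58) and *Wnt16* (16.6 and 7.62). The log10 FDR was only -0.79 for the WT peak of *Wnt3a* and -0.992 for the *Tyrobp*-/- peak of *Wnt1*, so these ratios rest on weakly called peaks. It was -3.46 for the WT peak of *Wnt7b* and -3.57 for the *Tyrobp*-/- peak of *Wnt6*, which is also an FDR above 1e-5. Another *Wnt9b* pair had 14.4 and 13.8, and a 3' UTR pair of *Wnt7b* had 9.45 and 10.5. *Wnt3a* is known as a ligand that hippocampal development depends on, and *Wnt7b* as one that acts on dendrites and on brain vessels.

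All 7 co-receptors and receptor-like genes had peaks in both genotypes. *Ror2*, a receptor tyrosine kinase for Wnt5a, had a 3' UTR peak at 11 in WT mice and 91.5 in *Tyrobp*-/- mice. The log2 ratio of 3.06 was the highest among the Wnt pathway genes examined. The highest WT peak of *Ror2*, at 22.5, was paired with one at 12.9 in *Tyrobp*-/- mice. *Smo*, a Frizzled-class receptor of the Hedgehog pathway, had a 3' UTR peak at 2.05 and 4.25 and another at 2.62 and 2.44. The WT log10 FDR of the former was -4.39. Of the 11 secreted inhibitors, *Dkk1* and *Dkk4* had no peak. *Sfrp2*, which binds Wnt ligands away from the receptors, had 20.5 in WT mice and 2.6 in *Tyrobp*-/- mice at 1 peak, a log2 ratio of -2.98. The log10 FDR of this *Sfrp2* peak was -6.76 in WT mice and only -2.99 in *Tyrobp*-/- mice. The other paired peak of *Sfrp2* had 3.06 and 3.13. *Frzb*, a relative of *Sfrp2*, had 3.13 and 7.62 in the 5' UTR, and 4.62 and 3.92 in the 3' UTR. *Notum*, an enzyme that inactivates Wnt ligands, had the highest WT value of the inhibitors at 29.3.

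The genes of Frizzled turnover, which hold the ubiquitin ligases that remove Frizzled from the membrane and the R-spondins and Lgr receptors that oppose them, had none of their 12 pairs past a ratio of 2. *Lgr6* led them at 29.3 in WT mice, and *Rspo4* had no peak. Downstream of the receptors, *Dvl3* of the Dishevelled and destruction complex genes had 4.88 and 16.2 in the 5' UTR, with a WT log10 FDR of -1.73. Its other paired peaks had 4.23 and 3.24, and 3.76 and 3.24. *Dvl1* and *Dvl2* had listed peaks in WT mice alone and *Gsk3a* in *Tyrobp*-/- mice alone, which does not show that a peak was absent. Over all genes, 15804 had a peak in WT mice, 16169 in *Tyrobp*-/- mice and 14194 in both, against 67, 67 and 65 of the genes in these lists. *Gsk3b*, a kinase of the destruction complex, had the highest WT value of that list at 23.2. Among catenin and nuclear effectors *Lef1* had 6.09 and 3.03 in the 5' UTR, *Bcl9l* led at 15.5, *Tcf7* had no peak and *Tcf7l1* had one in *Tyrobp*-/- mice alone. Among the planar cell polarity genes, *Celsr3* had the highest WT value, 27.4, at a peak with 15 in *Tyrobp*-/- mice. *Celsr3* also had the only pair past a ratio of 2, a first exon peak at 2.77 and 7.15. The log10 FDR of that peak was weak in both genotypes, -2.16 and -3.16.

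**Figure D5:**
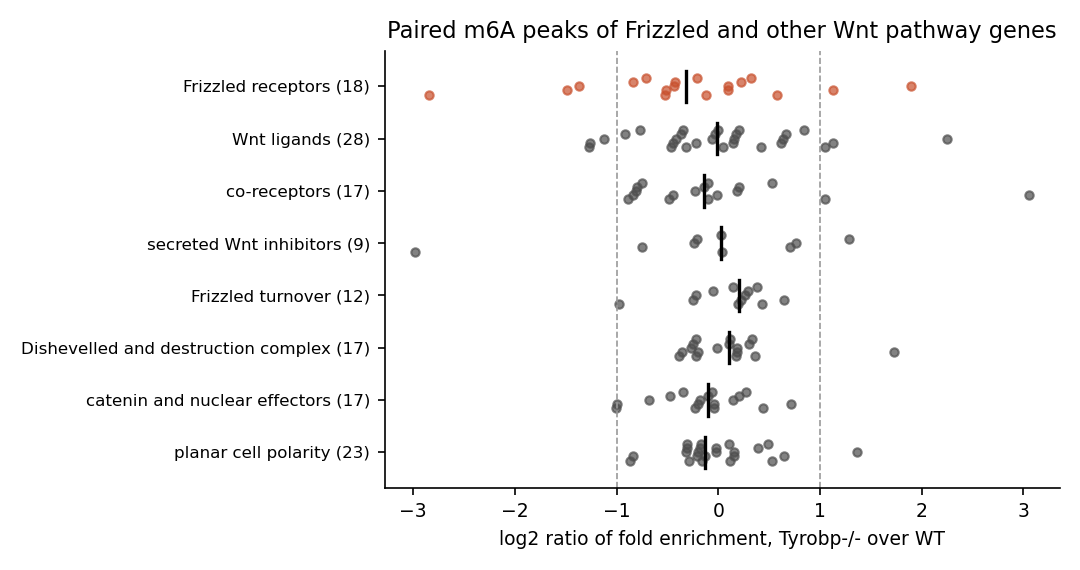
Log2 ratio of *Tyrobp*-/- over WT fold enrichment at each paired peak (x axis) of the Frizzled genes (orange) and of 7 lists of Wnt pathway genes (grey), with the number of pairs in brackets, a black bar at the median and dashed lines at a ratio of 2 and 0.5. The Frizzled median is at -0.32 and the medians of the other lists lie between -0.14 and 0.21.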

How the data were processed

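MeRIP-seq of 12 libraries (WT and *Tyrobp*-/- hippocampus, 3 IP and 3 input libraries each) was used. Per the labels and the study's methods, the authors cleaned reads with fastp, mapped them with HISAT2 to Ensembl v96 (GRCm38), called peaks with exomePeak on pooled replicates and used ChIPseeker for annotation. Deposited by the authors were counts of raw and valid reads per library and the percent of bases above quality limits. In the peak lists the authors deposited a fold enrichment, which is the ratio of IP to input, the p-value of IP against input, and the log10 of that p and of its FDR. The table comparing the genotypes also holds the log2 fold change, p-value and log10 FDR of the authors' own comparison. These were not used, and only its genes and positions were read.

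Peaks were paired by at least 1 shared exonic base within a gene, as mutual best partners, with pandas 2.3.3 and numpy 2.4.6 in Python 3.11.15, after pairing had been tested on simulated lists. A ratio of at least 2 or at most 0.5 was counted as higher or lower. Since 1 value per peak and genotype was available, no test was run, and intervals (Clopper-Pearson, 95%) cover counting error only. Named were every Frizzled gene, the gene with the highest WT value of each Wnt list, and genes with a pair past a ratio of 2, up to 10 in each direction. The members, lists and groupings were chosen with earlier results of these data known. Other overlaps, ratios, filters and values per gene were tried. Promoter sequence came from RefSeq (GRCm38.p6). Expression values were not used here.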

Additional observations from a re-analysis of the deposited data

How the results depend on the processing

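No paired analysis was possible because peaks were called on pooled replicates, and for the same reason no replicate could be left out. Of 122 values under other settings, 24 of those that answer a comparison moved and 29 did not. A further 67 values of single genes kept their direction and call. Many of these 67 could not change, because the value of a gene was that of its pair with the highest WT value. The overlap, FDR and fold enrichment settings returned the same number wherever they kept that pair, so this sameness is no support. Where pairs had to share 50% of the exonic bases of both peaks, 1 Frizzled pair was higher (5.25% of all pairs), and 11 WT and 12 *Tyrobp*-/- peaks had no partner (40.9% and 43.1% of all). At a ratio of 1.5, 5 pairs were lower (13.2%), and at a ratio of 4, 0 were higher (1.27%) and 1 was lower (1.02%). With an FDR below 1e-5, 1 pair was higher (4.49%), and 3 WT and 2 *Tyrobp*-/- peaks had no partner (13.1% and 14.1%). With a fold enrichment of at least 4, 1 pair was lower (6.15%) and 3 WT peaks had no partner (25.8%). This filter removes the *Tyrobp*-/- peaks of *Fzd1* at 3.28 and *Fzd8* at 3.39 for being low, so those lower pairs could not remain. With 1 value per gene, of 10 genes, the strongest peaks gave 1 higher (8.59%), 0 lower (7.23%) and 5 below 0 (46.3%), and the means weighted by width gave 1 higher (6.40%), 0 lower (5.74%) and 6 below 0 (46.3%). The higher gene was *Fzd5* both times. Its log2 ratio of 1.36 between the strongest peaks compares different regions, the exon 2 peak in WT and a 5' UTR record in *Tyrobp*-/- mice. *Fzd8* turned to 0.25 on the log2 scale between its strongest peaks, which are the 5' UTR peak in WT and the long 3' UTR peak in *Tyrobp*-/- mice and so no ratio at 1 peak, and was at -0.15 by its weighted mean. Weighted by width, 69.5% of the WT Frizzled peaks were 3' UTR (53.4% of all), and 61.1% of the *Tyrobp*-/- ones (56.0% of all). Each peak counts in full under its 1 annotation, so bases of long peaks that lie upstream of the 3' UTR are included. Chosen after seeing the data were the covered bases and these subsets of pairs. With both FDR at most 1e-5, 1 Frizzled pair was higher (4.45%). With a WT value of at least 20, 0 of 4 were higher (1.85%). At the 5' UTR or first exon 1 was higher (9.30%), and at the 3' UTR 0 were higher (5.13%) and 0 lower (3.76%). Without whole multiples, 0 were higher (3.89%) and 2 lower (2.86%). Each subset holds fewer pairs, and no other cause was tested.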
